A study of Homo sapiens with 15 samples.

Results

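This report describes HMOX1 and 8 other genes of the NRF2 antioxidant system, NQO1, GCLC, GCLM, TXNRD1, SRXN1, SLC7A11, NFE2L2 and BACH1, in fibroblasts and small cell lung cancer (SCLC) cells grown apart or together. They were taken by gene symbol, as 9 of the 17138 genes listed in either of 2 expression tables, and all 9 were listed and passed the filter on low counts in both. They were chosen by their measured levels (counts and FPKM) in the 5 groups and their direction in fibroblasts against H196 cells, so those values are given as a description and without a test.

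The study asked how fibroblasts and SCLC cells act on each other. The fibroblasts were MRC5, a line from human lung, and the tumour cells were H69, a neuroendocrine (NE) SCLC line, and H196, a non-NE one. MRC5 cells were grown alone (MRC5_Mo), with H69 (MRC5_CoH69) or with H196 (MRC5_CoH196), and H196 cells were grown alone (H196_Mo) or with MRC5 (H196_Co). The partner sat on a porous transwell insert for a week, no cell carried an engineered allele or a drug, and RNA of the cells in the well was sequenced in 3 libraries per group. Each cell type is represented by 1 line, MRC5 was kept in MEM and the SCLC lines in RPMI medium, and the medium used in co-culture is not given in the sources used here, so a change of medium and a change of partner cannot be told apart. Nothing says that the 3 libraries of a group came from separate cultures beyond their description as parallel replicates, so p-values measure the spread between these libraries, which may be technical.

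NRF2, the protein of NFE2L2, is a transcription factor that KEAP1 holds in the cytoplasm and hands over for degradation. Oxidants and electrophiles modify KEAP1, and NRF2 then enters the nucleus, pairs with a small MAF protein and binds antioxidant response elements in genes for glutathione synthesis, thioredoxin recycling, quinone reduction and heme breakdown. BACH1 pairs with the same small MAF proteins, occupies such elements as a repressor and leaves them when it binds heme, and HMOX1 is its classic target. Some lung cancers carry a constantly active NRF2, and the pathway is widely studied there for its part in resistance to treatment.

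The library totals lay between 16073597 and 19170560 counts, so a count of 0 allowed at most 0.157 to 0.187 CPM (counts scaled to the library total; from 3 counts, counting error only). The lowest count of any of the 9 genes was 142. The 8 fibroblast markers summed to 26708 to 29720 CPM in MRC5_Mo, 30575 to 31614 in MRC5_CoH69 and 12604 to 13346 in MRC5_CoH196, and all 7 of them listed for H196 summed to 2.05 to 3.09 CPM there. The lower sum in MRC5_CoH196 than in MRC5_Mo lay mainly in collagen genes. COL1A1 was at 14218 to 15413 CPM in MRC5_Mo and 4158 to 4564 in MRC5_CoH196. COL1A2 and COL3A1 were also lower. THY1 was slightly lower, at 643 to 662 and 547 to 556 CPM. PDGFRB was higher, at 316 to 343 and 444 to 474 CPM, and DCN, LUM and FAP overlapped. The 6 epithelial markers summed to 126 to 133 CPM in MRC5_Mo, 151 to 168 in MRC5_CoH69, 131 to 139 in MRC5_CoH196, 213 to 221 in H196_Mo and 245 to 274 in H196_Co, with CDH1 at 3 counts or fewer in every MRC5 and H196_Mo library. A set of 95 genes marking H196 RNA (20 CPM or more in all H196 libraries, below 0.5 CPM in all MRC5_Mo libraries) reached 0.301% to 0.785% of its mean H196_Co level in MRC5_CoH196, against 0.114% to 0.126% in MRC5_Mo. The MRC5_Mo level was held low by this choice of genes. In MRC5_CoH69, which took no part in the choice, the set reached 0.106% to 0.132%. HMOX1 lay further from its H196_Co level in MRC5_CoH196 than in MRC5_Mo. The 7 neuroendocrine markers summed to at most 1.12 CPM in MRC5 and 27.7 in H196, and the 6 immune or endothelial markers to 58.2 to 116 CPM in MRC5 and 81.0 to 117 in H196. Nearly all of the latter sum was CD68, at 57.4 to 115 CPM in MRC5 and 80.7 to 116 in H196. VWF was under 1 CPM and PECAM1 at 3 counts or fewer throughout. PTPRC and CDH5 were at 3 counts or fewer in MRC5 and not listed for H196, and CD3E was not listed for either line. The part of these markers in the results below was not tested.

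The sequence before the start of 3 of the genes is shown first. They are the only ones of the 7 genes with a window that had a match to a motif searched. They also cover 3 kinds of behaviour in the fibroblasts: GCLM was lower with H196, BACH1 higher, and TXNRD1 at the same level. Each is the 250 bases upstream of a RefSeq start (GRCh38.p14), written in the direction of transcription. Capitals mark a match to the core of the antioxidant response element, TGACNNNGC, in GCLM and TXNRD1, and to the AP-1 site, TGACTCA, in BACH1, both searched on either strand. The windows are chr1:93909431-93909680 on the minus strand for GCLM, chr12:104215529-104215778 on the plus strand for the first of 2 TXNRD1 starts, and chr21:29298672-29298921 on the plus strand for the first of 3 BACH1 starts.
GCLM: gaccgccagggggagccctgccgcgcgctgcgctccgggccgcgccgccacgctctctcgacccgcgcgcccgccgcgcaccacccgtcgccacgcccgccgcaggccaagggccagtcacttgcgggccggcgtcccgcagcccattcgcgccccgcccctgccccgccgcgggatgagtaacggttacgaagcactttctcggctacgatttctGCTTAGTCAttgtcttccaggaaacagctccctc
TXNRD1: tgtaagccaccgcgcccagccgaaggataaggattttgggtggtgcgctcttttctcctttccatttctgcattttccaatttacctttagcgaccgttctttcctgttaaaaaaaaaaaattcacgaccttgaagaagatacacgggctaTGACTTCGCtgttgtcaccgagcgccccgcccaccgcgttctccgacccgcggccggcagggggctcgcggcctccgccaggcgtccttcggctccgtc
BACH1: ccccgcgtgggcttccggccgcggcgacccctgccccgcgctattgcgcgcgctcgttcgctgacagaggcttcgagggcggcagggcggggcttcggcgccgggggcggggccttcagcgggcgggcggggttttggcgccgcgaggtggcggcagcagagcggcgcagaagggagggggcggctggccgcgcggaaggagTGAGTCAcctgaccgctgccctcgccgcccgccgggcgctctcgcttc
The GCLM match, GCTTAGTCA, lies 34 to 26 bases before the start and reads on the other strand. The first TXNRD1 start has TGACTTCGC at 99 to 91 bases, and the second start, with its window at chr12:104286782-104287031, has GCTTTGTCA at 102 to 94 bases. The BACH1 match, TGAGTCA, lies at 48 to 42 bases. RefSeq windows were at hand for 7 of the 9 genes, NQO1, GCLC, GCLM, TXNRD1, SRXN1, NFE2L2 and BACH1, with 11 starts in all. The antioxidant core was in 3 of these 11 windows, of 2 genes, and in 10.9% of all 35116 windows of that length, and the AP-1 site was in 1 of 11 and in 4.20% of all. The core of the hypoxia response element, ACGTG, was searched as well and was in 0 of 11 windows and in 18.5% of all. The antioxidant core and the AP-1 site share the letters TGAC, and a match describes letters and no binding.

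HMOX1 encodes heme oxygenase 1, which opens heme to biliverdin, carbon monoxide and iron, and of the 9 genes it differed most between the responses of the lines (chr22:35381096-35394207, GRCh38.p13, NCBI gene 3162). In MRC5_Mo it stood at 30.5, 28.1 and 27.8 fragments per kilobase of gene and mapped depth (FPKM), in MRC5_CoH69 at 22.04, 21.85 and 24.01, and in MRC5_CoH196 at 8.55, 6.83 and 6.10. In H196_Mo it stood at 22.7, 22.5 and 24.3 FPKM, and in H196_Co at 60.5, 54.4 and 58.9. Every fibroblast library with H196 was below every other fibroblast library, and every H196 library with fibroblasts was above every H196 library without. In edgeR this was a log2 fold change of -1.84 ± 0.09 (SE) in MRC5_CoH196 against MRC5_Mo, 3.57-fold lower, and of 1.40 ± 0.08 in H196_Co against H196_Mo, 2.64-fold higher. With H69 the log2 fold change was -0.34 ± 0.07, and between the co-cultures, MRC5_CoH196 against MRC5_CoH69, it was -1.49 ± 0.09. In bulk RNA, fewer cells of a type and less RNA per cell cannot be told apart. Leaving out any 1 library kept the values between -1.99 and -1.73 with H196 and between 1.36 and 1.45 in H196 cells. In order of FPKM, H196_Co came first at 57.9 ± 3.16 (SD, n = 3), then MRC5_Mo at 28.8 ± 1.47, H196_Mo at 23.1 ± 1.02, MRC5_CoH69 at 22.6 ± 1.20 and MRC5_CoH196 at 7.16 ± 1.26, and only H196_Mo and MRC5_CoH69 overlapped as neighbours. The 2 tables were normalised apart, so an order that crosses the lines was not tested.

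**Figure D1:**
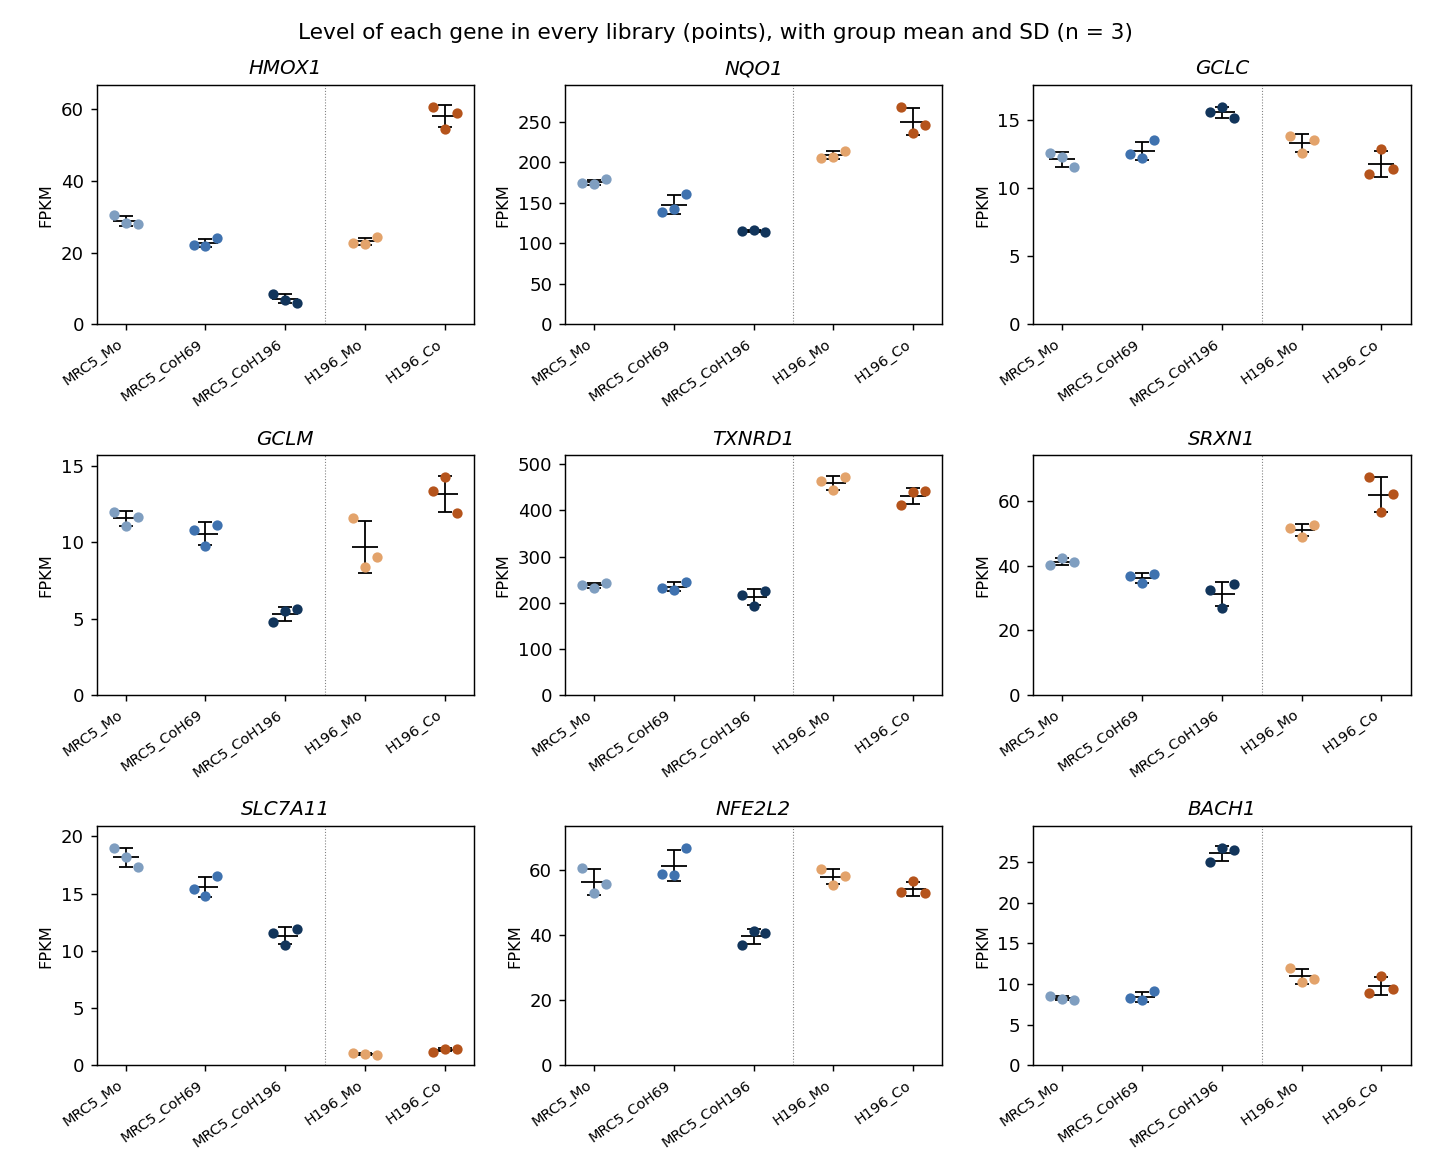
Level of each of the 9 genes (FPKM, linear axes from 0) in the 15 libraries, as points, with the mean and SD of each group of 3; fibroblast groups are left of the dotted line and H196 groups right of it. HMOX1 lies between 6.10 and 8.55 FPKM in MRC5_CoH196 and between 54.4 and 60.5 in H196_Co, and BACH1 lies between 24.9 and 26.7 in MRC5_CoH196 and at 12.0 or below in the other groups.

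BACH1, the repressor, showed the reverse in the fibroblasts and little in H196 (chr21:29298922-29386475, NCBI gene 571). Its FPKM was 8.56, 8.19 and 8.02 in MRC5_Mo, 8.23, 8.0 and 9.14 in MRC5_CoH69, and 24.9, 26.7 and 26.4 in MRC5_CoH196. In H196_Mo it was 12.0, 10.2 and 10.7, and in H196_Co 8.84, 10.96 and 9.44. The fibroblasts with H196 stood clear of all other groups, and the other neighbours in the order of levels overlapped. The log2 fold change was 1.84 ± 0.05 with H196, 3.57-fold higher, 0.05 ± 0.06 with H69 and -0.09 ± 0.08 in H196_Co. HMOX1 and BACH1 thus lay on opposite sides of MRC5_Mo in the fibroblasts with H196, with log2 ratios of mean FPKM of -2.01 and 1.66. In H196 cells HMOX1, but not BACH1, differed by more than the spread between libraries. Protein, heme and nuclear levels of BACH1 were not measured in these libraries.

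NFE2L2, which encodes NRF2 itself, differed less (chr2:177229191-177267010, NCBI gene 4780). It read 60.5, 52.8 and 55.6 FPKM in MRC5_Mo, 58.8, 58.3 and 66.8 in MRC5_CoH69 and 36.9, 41.2 and 40.6 in MRC5_CoH196. In H196_Mo it read 60.1, 55.5 and 58.1, and in H196_Co 53.1, 56.7 and 52.8. Only MRC5_CoH196 lay below the other groups without overlap, with a log2 fold change of -0.34 ± 0.06. With H69 the value was 0.13 ± 0.05, and in H196_Co it was -0.01 ± 0.07. NRF2 is controlled mainly through the life span of its protein, which RNA does not show. Within a library, the ratio of BACH1 to NFE2L2 in FPKM, both per length, had a mean log2 of -2.77 ± 0.07 (SD, n = 3) in MRC5_Mo, -2.86 ± 0.02 in MRC5_CoH69 and -0.60 ± 0.03 in MRC5_CoH196. In H196_Mo and H196_Co it was -2.40 ± 0.07 and -2.48 ± 0.11. BACH1 RNA was therefore 0.137 to 0.200 of NFE2L2 RNA in 12 libraries and 0.649 to 0.675 of it in the 3 fibroblast libraries with H196.

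GCLC and GCLM encode the catalytic and the modifier subunit of glutamate-cysteine ligase, the first step of glutathione synthesis, and they parted in both lines. GCLM (chr1:93885199-93962469, NCBI gene 2730) was at 12.0, 11.1 and 11.7 FPKM in MRC5_Mo, 10.8, 9.73 and 11.2 in MRC5_CoH69, and 4.77, 5.52 and 5.64 in MRC5_CoH196. In H196_Mo it was at 11.6, 8.39 and 9.06, and in H196_Co at 13.4, 14.3 and 11.9. The fibroblasts with H196 were below all other libraries, and the H196_Co libraries lay above those of H196_Mo, by a small gap. The log2 fold change was -0.95 ± 0.07 with H196, -0.11 ± 0.06 with H69 and 0.52 ± 0.09 in H196_Co. GCLC (chr6:53497341-53545101, NCBI gene 2729) went the other way in the fibroblasts, from 12.6, 12.3 and 11.5 FPKM in MRC5_Mo and 12.5, 12.2 and 13.5 in MRC5_CoH69 to 15.55, 15.95 and 15.14 in MRC5_CoH196. In H196_Mo it read 13.8, 12.5 and 13.5, and in H196_Co 11.01, 12.86 and 11.41, groups that overlapped. Its log2 fold change was 0.53 ± 0.05 with H196, 0.09 ± 0.05 with H69 and -0.12 ± 0.08 in H196_Co.

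The balance of both subunits was compared within each library, where depth cancels. The log2 ratio of GCLC to GCLM in FPKM averaged 0.06 ± 0.09 (SD, n = 3) in MRC5_Mo, 0.27 ± 0.06 in MRC5_CoH69 and 1.55 ± 0.14 in MRC5_CoH196. In H196_Mo it averaged 0.47 ± 0.19 and in H196_Co -0.16 ± 0.11. GCLC RNA was thus 2.68 to 3.26 times GCLM RNA in fibroblasts with H196, and between 0.825 and 1.49 times in every other library. In both lines the ratio in co-culture with the other line did not overlap that in mono-culture, on opposite sides.

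**Figure D2:**
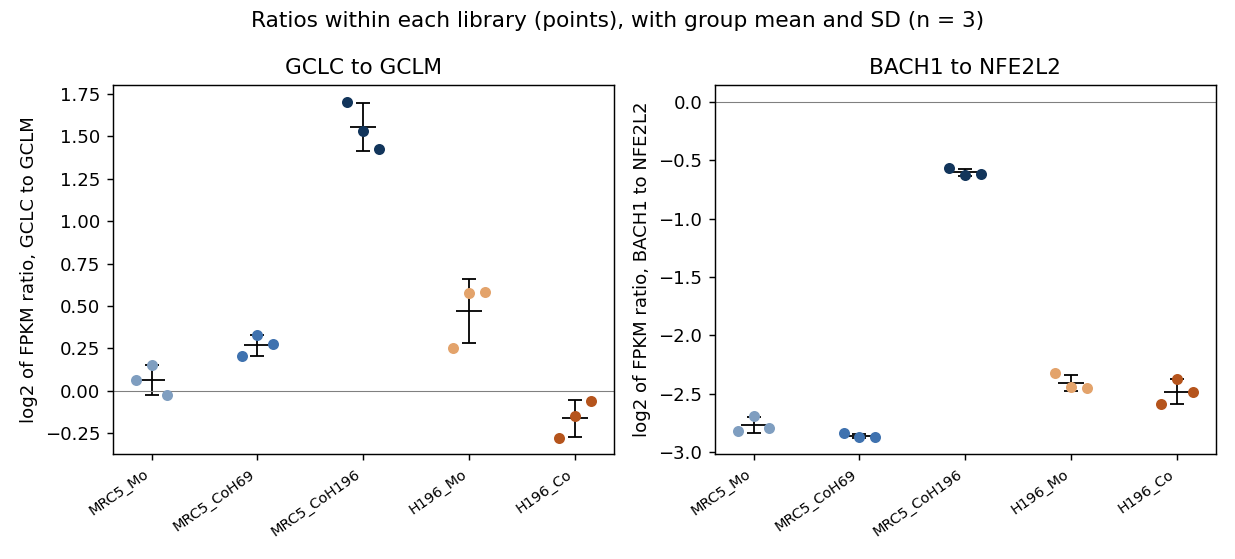
Log2 ratio of FPKM of GCLC to GCLM (left) and of BACH1 to NFE2L2 (right) in each library, as points, with group mean and SD (n = 3); the grey line marks equal levels. Both ratios stand highest in MRC5_CoH196, at means of 1.55 and -0.60, and GCLC to GCLM is lowest in H196_Co at -0.16.

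SLC7A11, the cystine importer subunit that supplies cysteine for glutathione, had the widest gap between the lines among the 9 (chr4:138164097-138243126, NCBI gene 23657). It stood at 19.01, 18.21 and 17.34 FPKM in MRC5_Mo, 15.4, 14.8 and 16.5 in MRC5_CoH69, and 11.6, 10.5 and 11.9 in MRC5_CoH196. In H196_Mo it stood at 1.07, 1.02 and 0.88, and in H196_Co at 1.21, 1.47 and 1.42, from 142 to 232 counts per library. None of the 5 groups overlapped with another. The log2 fold change was -0.51 ± 0.05 with H196, -0.21 ± 0.05 with H69 and 0.58 ± 0.11 in H196_Co. The last of these sat at the fold limit of 0.58 used for calls, and without 1 library it ran from 0.53 to 0.65.

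NQO1, a quinone reductase and a standard readout of NRF2, was abundant in both lines (chr16:69709401-69732999, NCBI gene 1728). Its FPKM was 174, 173 and 179 in MRC5_Mo, 139, 143 and 161 in MRC5_CoH69, and 115, 116 and 114 in MRC5_CoH196. It was 206, 206 and 214 in H196_Mo and 268, 236 and 246 in H196_Co. No 2 groups overlapped, yet the sizes were modest, with log2 fold changes of -0.43 ± 0.05 with H196, -0.24 ± 0.05 with H69 and 0.34 ± 0.07 in H196_Co.

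SRXN1 encodes sulfiredoxin, which restores overoxidised peroxiredoxins (chr20:646615-653200, NCBI gene 140809). It was at 40.2, 42.4 and 41.2 FPKM in MRC5_Mo, 36.9, 34.5 and 37.5 in MRC5_CoH69, and 32.6, 27.1 and 34.3 in MRC5_CoH196. In H196_Mo it was at 51.7, 48.9 and 52.6, and in H196_Co at 67.5, 56.6 and 62.2. Its log2 fold change was -0.22 ± 0.06 with H196, -0.17 ± 0.06 with H69 and 0.36 ± 0.08 in H196_Co, with no overlap between mono-culture and co-culture, while both fibroblast co-cultures overlapped in CPM.

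TXNRD1, the cytosolic thioredoxin reductase and the most abundant of the 9 genes, did not follow the rest (chr12:104215396-104350307, NCBI gene 7296). It read 239, 232 and 242 FPKM in MRC5_Mo, 232, 227 and 246 in MRC5_CoH69, and 218, 193 and 226 in MRC5_CoH196. In H196_Mo it read 464, 444 and 472, and in H196_Co 412, 441 and 441. The log2 fold changes in edgeR were 0.01 ± 0.05 with H196, -0.01 ± 0.05 with H69 and -0.02 ± 0.07 in H196_Co, and groups overlapped in CPM in each case. On the FPKM scale the libraries with H196 lay below those of MRC5_Mo, with a log2 ratio of means of -0.16, and the sign of this gene thus depends on the scaling. The median over all tested genes was itself shifted by -0.13 on the log2(FPKM + 1) scale in MRC5_CoH196 against MRC5_Mo, which edgeR scaling sets near 0. The other 8 genes kept their direction in that comparison under either scaling.

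**Figure D3:**
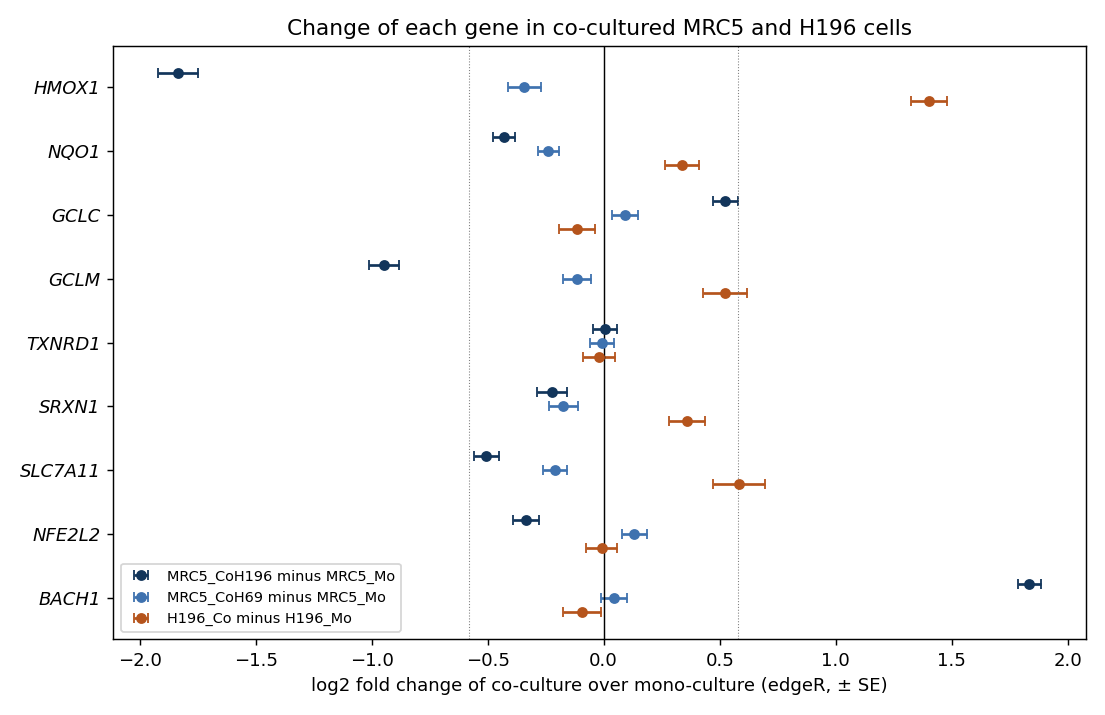
Log2 fold change of co-culture over mono-culture with its SE (edgeR, 3 libraries per group) for each gene in MRC5 with H196, MRC5 with H69 and H196 with MRC5; dotted lines mark the limits of -0.58 and 0.58. HMOX1 has the widest span, from -1.84 in fibroblasts to 1.40 in H196 cells, and the H69 values all lie between -0.34 and 0.13.

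Set side by side, 5 of the 9 genes (HMOX1, NQO1, GCLM, SRXN1 and SLC7A11) were lower in every fibroblast library with H196 than in every MRC5_Mo library and higher in every H196_Co library than in every H196_Mo library. Over all 11743 genes tested in both tables this pattern held for 3.75%, and nothing is read from the contrast because these directions were in view when the genes were chosen. The difference of both responses, fibroblasts minus H196, was -3.26 ± 0.12 for HMOX1, -1.50 ± 0.12 for GCLM, -1.12 ± 0.12 for SLC7A11, -0.79 ± 0.08 for NQO1 and -0.61 ± 0.10 for SRXN1 on the log2 scale. It was 1.90 ± 0.10 for BACH1, 0.61 ± 0.09 for GCLC, -0.35 ± 0.08 for NFE2L2 and 0.00 ± 0.08 for TXNRD1. With H196, only HMOX1, GCLM and BACH1 changed in the fibroblasts by more than the fold limit of 0.58 in edgeR. No adjusted p is given for the 9 genes, because these values took part in their choice. For the same reason nothing is read from the shares and medians that follow. For 8 of the 9 the groups did not overlap in CPM, as for 75.5% of all genes. With H69 all 9 stayed under the fold limit, and 4 did not overlap, against 25.7% of all genes. In H196_Co, HMOX1 and, only just, SLC7A11 were past the fold limit, and 5 did not overlap, against 37.2%. Between both fibroblast co-cultures HMOX1, GCLM and BACH1 were past both limits, against 28.2% of all genes, and 7 did not overlap, against 73.1%. The median log2 fold change of the 9 genes was -0.34 with H196, -0.11 with H69 and 0.34 in H196_Co, beside medians of 0.00 over all genes tested.

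**Figure D4:**
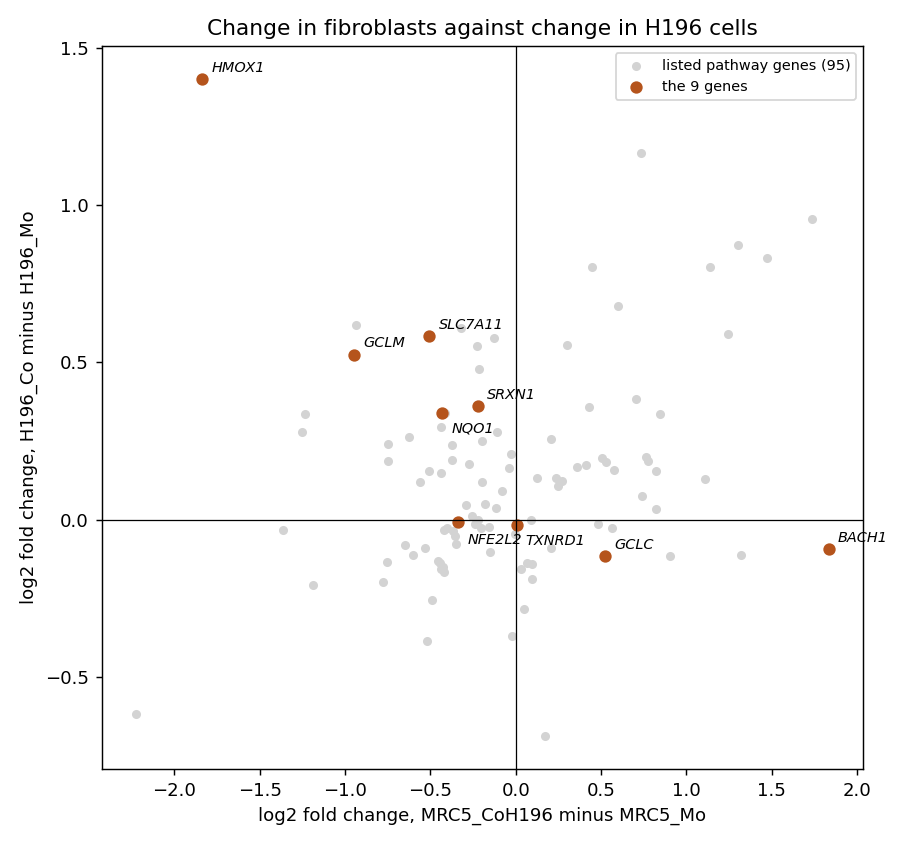
Log2 fold change in fibroblasts (MRC5_CoH196 minus MRC5_Mo, x axis) against that in H196 cells (H196_Co minus H196_Mo, y axis) for the 9 genes, named, and 95 listed pathway genes, in grey. HMOX1, GCLM, SLC7A11, NQO1 and SRXN1 lie in the upper left, lower in fibroblasts and higher in H196 cells, and BACH1 and GCLC lie at the lower right.

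Genes whose changes were most like those of HMOX1 over the 3 comparisons with a mono-culture were sought among 11152 genes with a mean of at least 1 CPM in both tables. By root mean square difference of log2 fold change these were MMP15 (0.45), ARHGDIB (0.54), CCDC102B (0.56), PTX3 (0.57) and UCN2 (0.61). MMP15 is a membrane-bound matrix metalloproteinase, and its log2 fold changes were -1.29 with H196, -0.42 with H69 and 0.85 in H196_Co. PTX3, a secreted pentraxin, had -2.04, -0.59 and 0.48, and a mean level of 88.9 FPKM in MRC5_Mo and 19.2 in MRC5_CoH196. UCN2, a peptide hormone of the corticotropin-releasing family, had -0.82, -0.43 and 1.12. ARHGDIB had -1.22, -0.04 and 0.77, and CCDC102B had -2.13, -0.32 and 0.47. All but PTX3 had means under 7 FPKM in every group. GCLM ranked 26th by this measure at 0.73 and SLC7A11 178th at 0.91, whereas BACH1 ranked 11018th. MRC5_CoH196 and MRC5_CoH69 share the MRC5_Mo libraries in this measure.

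Around these genes, 109 further genes in 8 lists, grouped by role, were followed, and these were tested. With H196, 19 rose and 13 fell of 105 tested in fibroblasts (edgeR quasi-likelihood test, adjusted p under 0.05 over all genes and a log2 fold change past 0.58), which is 30.5% against 31.9% of all genes. On the log2(FPKM + 1) scale 12 rose and 24 fell in limma. With H69, 2 of 105 rose, and 31 of them had an unadjusted p under 0.05. In H196_Co 9 rose and 1 fell of 95, which is 10.5% against 3.86% of all genes. Of these 9 rises 6 were in the ATF4 list of 10 stress genes. The NRF2 control, heme and iron, and quinone lists had 1 rise each. The responses of both lines differed for 68 of 100 genes at an adjusted p under 0.05, as for 51.2% of all genes. Of 95 genes, 24 were lower in fibroblasts, higher in H196 cells and past the test of the difference, which is 25.3% against 14.4% of all genes, and 8 showed the reverse, which is 8.42% against 13.2%. The lists were chosen with earlier results of these data known, so these shares are a description and nothing is read from the contrast.

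Of the 11 genes that control NRF2 or share its DNA element, 4 rose and 1 fell in fibroblasts with H196. That is 45.5% called, against 31.9% of all genes. KEAP1, the inhibitor of NRF2, fell from 34.6 ± 0.62 FPKM in MRC5_Mo to 20.2 ± 0.37 in MRC5_CoH196 (log2 fold change -0.60 ± 0.05, adjusted p = 3.57e-11). The small MAF genes encode the partners that NRF2 and BACH1 share. MAFF rose from 21.3 ± 0.42 to 46.6 ± 3.45 FPKM (1.303 ± 0.06, adjusted p = 8.71e-16) and MAFK from 17.1 ± 2.24 to 32.3 ± 1.03 (1.11 ± 0.07, adjusted p = 8.59e-14). MAFG, at 0.57 ± 0.06, was under the fold limit with an adjusted p of 1.83e-09. BACH2, a relative of BACH1, rose by 1.32 ± 0.18 from a mean of only 0.227 FPKM (adjusted p = 4.85e-07), a call that is lost on the log2(FPKM + 1) scale, and the fourth gene was NFE2L3. In H196_Co MAFF rose too, from 8.43 ± 0.36 to 14.7 ± 1.47 FPKM (0.87 ± 0.09, adjusted p = 9.06e-07), whereas KEAP1 (-0.11 ± 0.09) and MAFK (0.13 ± 0.07) did not pass. The response of fibroblasts differed from that of H196 by -0.51 ± 0.10 for KEAP1 (adjusted p = 7.8e-05) and 0.96 ± 0.10 for MAFK (adjusted p = 7.13e-09).

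The list of quinone, carbonyl and drug metabolism holds many known NRF2 targets, and 7 of its 15 tested genes fell in fibroblasts with H196. That is 46.7% of the list, where 31.9% of all genes were called and 1885 of 12819 were called lower. All 15 had a log2 fold change below 0 in these fibroblasts, with a median of -0.56. In H196_Co 10 were above 0, with a median of 0.19. All 15 differed between the lines in the test of responses, as did 51.2% of all genes, with a median difference of -0.70 in the list. The steepest falls were in PIR, an iron-binding nuclear protein (-1.36 ± 0.17, from 5.49 ± 0.75 to 1.89 ± 0.21 FPKM, adjusted p = 6.3e-08), and AKR1C2, a ketosteroid reductase (-1.25 ± 0.25, adjusted p = 6.47e-05), which was under 1 FPKM in every library, lost its call on the log2(FPKM + 1) scale, and whose reads may be split with its near-identical relative AKR1C1. OSGIN1, an oxidative stress-induced growth inhibitor, rose in H196_Co from 36.4 ± 2.51 to 52.6 ± 3.46 FPKM (0.61 ± 0.08, adjusted p = 2.32e-05), and this call is lost in limma on either FPKM scale and without H196_Mo replicate 1 or H196_Co replicate 1.

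Genes for NADPH, the reductant that NQO1 and thioredoxin reductase consume, were followed next. In fibroblasts with H196, PGD, a dehydrogenase of the pentose phosphate route, fell from 164 ± 2.23 to 64.1 ± 4.18 FPKM (-1.19 ± 0.05, adjusted p = 5.51e-17). MTHFD2, a mitochondrial folate enzyme, rose by 0.71 ± 0.05 (adjusted p = 2.07e-12). Of the 11 genes 8 did not pass, and 27.3% were called, against 31.9% of all genes. The list had a median of -0.40. In H196_Co PGD was at -0.21 ± 0.07, and the list had a median of -0.04. The responses of PGD differed by -1.01 ± 0.08 (adjusted p = 5.57e-11).

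Of 13 genes of heme and iron, the substrate and product of HMOX1, 1 rose and 2 fell in fibroblasts with H196, and 1 rose and 1 fell in H196_Co. The called shares were 23.1% and 15.4%, against 31.9% and 3.86% of all genes. TFRC, the transferrin receptor that brings in iron, fell in both lines. It went from 45.3 ± 0.44 to 8.56 ± 0.87 FPKM in fibroblasts (-2.22 ± 0.05, adjusted p = 1.6e-21) and from 24.6 ± 2.53 to 15.1 ± 1.15 in H196 cells (-0.62 ± 0.08, adjusted p = 2.35e-05). The call in H196 cells is lost without H196_Mo replicate 1 or H196_Co replicate 2. ABCB6, a porphyrin transporter, rose in both, by 0.74 ± 0.07 (adjusted p = 5.23e-10) and 1.17 ± 0.08 (adjusted p = 1.86e-09), the former under the fold limit in limma on either FPKM scale. FECH, the last enzyme of heme synthesis, fell in fibroblasts (-0.75 ± 0.07, adjusted p = 3.76e-10) and was at -0.14 ± 0.07 in H196_Co, and its response differed between the lines by -0.65 ± 0.10 (adjusted p = 3.01e-06). The ferritin chains FTH1 and FTL and the constitutive oxygenase HMOX2 were picked for mention after their values were seen, and reads of the ferritins may be shared with their many pseudogenes. In H196_Co FTH1 was at 0.58 ± 0.08 and FTL at 0.56 ± 0.08, both just under the fold limit with adjusted p values of 3.48e-05 and 3.04e-05. In fibroblasts with H196 they were at -0.13 ± 0.04 and 0.30 ± 0.04. HMOX2 was at -0.41 ± 0.06 in fibroblasts and 0.34 ± 0.09 in H196 cells, the same signs as HMOX1, and differed between the lines by -0.78 ± 0.11 (adjusted p = 8.41e-07).

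Most genes of glutathione use and of the thioredoxin system did not pass. In fibroblasts with H196, 8.70% and 14.3% of these lists were called, against 31.9% of all genes. Of 23 glutathione genes 2 rose in fibroblasts with H196, GLRX, a glutaredoxin, from 97.2 ± 2.79 to 161 ± 6.20 FPKM (0.90 ± 0.05, adjusted p = 4.75e-15), and GGT1, a glutathione-cleaving surface enzyme, by 0.77 ± 0.11 (adjusted p = 1.23e-06). GGT5, its relative, rose with H69 by 0.97 ± 0.16 (adjusted p = 0.000367). Of 14 thioredoxin genes 2 rose, TXNIP, the thioredoxin-binding protein, from 24.6 ± 3.94 to 54.4 ± 3.69 FPKM (1.31 ± 0.08, adjusted p = 1.02e-13), and SESN3, a sestrin (0.82 ± 0.09, adjusted p = 4.56e-09). The glutathione list had a median log2 fold change of -0.15 in fibroblasts with H196, with 16 of 23 genes below 0. The thioredoxin list had a median of -0.14 there, with 8 of 14 genes below 0. No gene of either list was called lower. In H196_Co the 2 lists had medians of 0.04 and 0.07. GGT1 belongs to a family of near-identical copies, so its reads may be split. Among 8 genes of superoxide and hydrogen peroxide, SOD3, the extracellular dismutase, rose (0.82 ± 0.10, adjusted p = 1.34e-07) and SCARA3, a scavenger receptor, fell (-0.75 ± 0.05, adjusted p = 6.93e-13) with H196, and NOX4, a hydrogen peroxide-producing oxidase, rose with H69 (0.67 ± 0.14, adjusted p = 0.00364). The called share of this list was 25.0% with H196 and 12.5% with H69, against 31.9% and 0.554% of all genes. The calls of GGT1, GGT5, SESN3, SOD3 and NOX4 are lost in limma on log2(FPKM + 1), that of NOX4 also on log2(FPKM + 0.1).

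The ATF4 list holds genes of a stress program that also raises SLC7A11 and CHAC1 in many cells. In fibroblasts with H196 8 of its 10 genes rose, with a median of 0.83, where 2207 of all 12819 genes tested were called higher. In H196_Co 6 of 10 rose, with a median of 0.63, where 417 of 12806 were called higher, and ATF4 itself, at 0.15, PSAT1, PHGDH and SHMT2 did not pass both limits. CHAC1, which degrades glutathione, rose from 60.9 ± 1.39 to 181 ± 14.9 FPKM in fibroblasts (1.74 ± 0.06, adjusted p = 2.01e-18) and from 2.22 ± 0.33 to 4.92 ± 0.38 in H196 cells (0.96 ± 0.13, adjusted p = 2.35e-05). ASNS, asparagine synthetase, rose by 1.47 ± 0.07 (adjusted p = 8.21e-16) and 0.83 ± 0.07 (adjusted p = 5.1e-08). SLC7A11 itself, described above, was lower in the same fibroblasts (-0.51 ± 0.05) and higher in H196_Co (0.58 ± 0.11). Its relation to ATF4 was not tested.

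**Figure D5:**
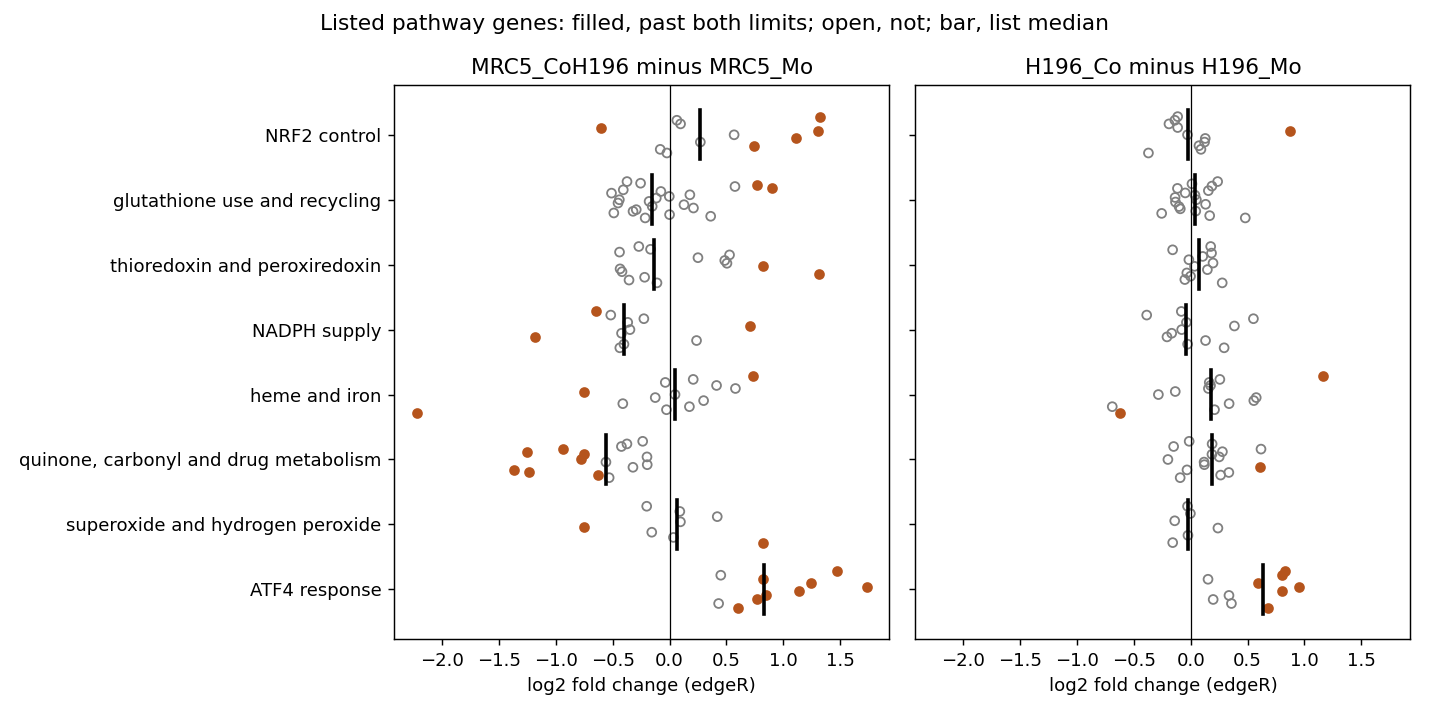
Log2 fold change (edgeR) of each listed pathway gene, one row per list, in MRC5_CoH196 against MRC5_Mo (left) and H196_Co against H196_Mo (right); filled points passed both limits, open points did not, and bars mark list medians. The quinone, carbonyl and drug metabolism list has a median of -0.56 on the left and 0.19 on the right, and the ATF4 list is above 0 on both sides.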

How the data were processed

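The 9 MRC5 and 6 H196 libraries were made from RNA captured with oligo(dT) and sequenced by BGI. The authors cleaned reads with SOAPnuke and mapped the clean reads to GRCh38.p13 (HISAT) and to gene sequences (Bowtie2), and the submitters' processing notes also name HISAT2 2.1.0, Bowtie2 2.3.4.3 and RSEM 1.3.1. The deposited expected counts are estimated reads per gene with no normalization, of which 93.7% (MRC5) and 92.1% (H196) were whole within 1e-6. The deposited FPKM values were scaled by the authors per kilobase and per mapped depth. Strand handling and the counting settings are not given in the sources used here, and RefSeq places antisense RNAs over NQO1, GCLC, TXNRD1 and SLC7A11, so their reads cannot be told apart. Coordinates are those of the tables, and for NQO1, GCLM, TXNRD1, SLC7A11, NFE2L2 and BACH1 they reach beyond the RefSeq gene in GRCh38.p14. Not used here were 18 MRC5 and 12 H196 columns of TPM and normalized counts, group averages, the authors' own fold changes and p-values, and a second copy of each table.

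Counts were rounded and fitted with edgeR 4.0.16 in R 4.3.3 (filterByExpr, TMM factors 0.916 to 1.05 within a line and 0.814 to 1.26 over both, quasi-likelihood F tests, two-sided, Benjamini-Hochberg), over 9 MRC5 libraries (12819 genes), 6 H196 libraries (12806) and all 15 for the difference of responses (13585). The SE is the ratio of the log2 fold change to the root of its F value. A call needs an adjusted p under 0.05 with a log2 fold change beyond 0.58 either way, and for the difference of responses the adjusted p alone. The fits were tested on simulated data. With 3 libraries per group an exact permutation test of 1 gene cannot go below 0.1, which is why single values carry no p of that kind. Replicates differed by more than sampling noise, with chi-square per degree of freedom from 1.89 to 10.8.

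The 9 genes and the lists were chosen with earlier results of these data known. Pathway genes named are KEAP1, MAFF, MAFG and MAFK and, per list and comparison with a mono-culture, up to 2 of the largest rises and falls among calls with a mean of at least 1 CPM, and the 5 genes nearest to HMOX1. Exceptions are said in the text, and the result of 1 gene is not reported here. Alternatives were DESeq2 1.42.0, its size factors in edgeR, limma 3.58.1 on log2(FPKM + 1) and log2(FPKM + 0.1), other count filters, a replicate block, fits of the compared groups alone, other fold limits, and each library left out.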

Additional observations from a re-analysis of the deposited data

Results flagged for a closer look

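For 5 of the 9 genes every fibroblast library with H196 moved one way against MRC5_Mo and every H196_Co library moved the other way against H196_Mo. The difference of responses (fibroblasts minus H196, log2) was -3.26 for HMOX1, -0.79 for NQO1, -1.50 for GCLM, -0.61 for SRXN1 and -1.12 for SLC7A11, and it was not tested, because these directions took part in the choice of the genes.

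Of the 23 named pathway genes, 18 differed in response between the lines by edgeR's interaction test (adjusted p under 0.05), as did 51.2% of all genes tested. TXNIP, SOD3, GGT5 and NOX4 were not listed for H196 and could not be tested, and GGT1 did not pass. Apart from KEAP1, MAFF, MAFG and MAFK, the genes were named for a large change in a comparison with a mono-culture, so nothing is read from this count. The 18 genes are given next with their differences. The response was lower in fibroblasts than in H196 cells for KEAP1 (-0.51), PGD (-1.01), FECH (-0.65), TFRC (-1.63), ABCB6 (-0.46), AKR1C2 (-1.56), PIR (-1.36), OSGIN1 (-0.96) and SCARA3 (-1.01). It was higher in fibroblasts for MAFF (0.40), MAFG (0.57), MAFK (0.96), BACH2 (1.41), GLRX (0.99), SESN3 (0.76), MTHFD2 (0.30), CHAC1 (0.75) and ASNS (0.61). For TFRC, ABCB6, MAFF, CHAC1 and ASNS both lines were past their limits in the same direction, and only the size differed.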

How the results depend on the processing

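The direction of HMOX1, GCLM, BACH1, NQO1, SLC7A11, SRXN1, NFE2L2 and GCLC in MRC5_CoH196 against MRC5_Mo held under every alternative run. TXNRD1 changed sign with the setting in each comparison (from -0.17 to 0.08 in MRC5_CoH196 against MRC5_Mo), as did BACH1 with H69 without 1 library (-0.01), SRXN1 between both fibroblast co-cultures without 1 library (0.06) and NFE2L2 in H196_Co (0.00). HMOX1 ran from -2.01 to -1.73 with H196 and from 1.29 to 1.45 in H196_Co, BACH1 from 1.55 to 1.87 with H196, and SLC7A11 in H196_Co from 0.25 on the log2(FPKM + 1) scale, which understates low genes, to 0.65.

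Same-numbered libraries did not deviate together (correlations from -0.15 to 0.08, with 0 of 15 libraries closest to their own number). Libraries of other numbers had correlations from -0.14 to 0.20. No pairing by number was seen, but 3 libraries per group cannot exclude one. With the replicate block 4088, 70, 3612, 471 and 6796 genes were called with H196, with H69, between the co-cultures, in H196_Co and for the difference of responses, against 4092, 71, 3618, 494 and 6958 without it, and 32, 2, 10 and 67 pathway genes against 32, 2, 10 and 68.

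The number of genes called with H196 went to 9522 with no fold limit and 1564 at a limit of 1, between co-cultures to 9269 and 1353, in H196_Co to 2538 and 147, and with H69 to 859 and 9. With H69 it was 40 in DESeq2 and 18 in limma on log2(FPKM + 1), and in H196_Co 195 in that limma fit. Pathway genes called with H69 were 1 in DESeq2, 0 in limma on log2(FPKM + 1), where 31 had an unadjusted p under 0.05, and 1 on log2(FPKM + 0.1), and in H196_Co 6 on log2(FPKM + 1). Calls with H196 split into 2207 higher and 1885 lower in edgeR, 915 and 2082 on log2(FPKM + 1) and 1437 and 2869 on log2(FPKM + 0.1), and those in H196_Co into 417 and 77, 149 and 46, and 306 and 111. The cause was not tested. Leaving out each library gave 3961 to 4147, 48 to 85, 3505 to 3655, 424 to 517 and 6461 to 6996 calls in the same order of comparisons, and 32 to 35, 2 to 2, 8 to 12 and 63 to 73 pathway genes. Of the named pathway genes, BACH2, GGT1, SESN3, ABCB6, AKR1C2 and SOD3 with H196, GGT5 and NOX4 with H69, and OSGIN1 in H196_Co fell under the fold limit in limma on log2(FPKM + 1). MAFG with H196 passed it without MRC5_CoH196 replicate 2 or 3, and OSGIN1 in H196_Co fell under it without replicate 1 of either H196 group.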
